A study of Mus musculus with 24 samples.

Results

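RNA of late germinal center (GC) B cells was compared with RNA of peak GC B cells from the mouse spleen. The comparison held 3 libraries titled late GC and 3 titled peak GC, chosen by title, which are 6 of the 24 libraries of the series. Both groups were splenic cells of Balb/c mice that had been purified with beads, stained and sorted, and the cell type label is the sole difference given between them. No genotype, transgene, immunogen, time after immunization, age or animal is named in the labels. The interval between the peak and late stages, and whether libraries of a group came from separate animals, are therefore not stated. A p-value here rests on how far libraries within a group differ, pooled over all 8 groups of the series, and this spread may be technical. The remaining libraries, of early GC, in vivo activated and naive B cells and of B cells at 4 h, 12 h and 24 h of in vitro activation, served to estimate the spread and to show levels elsewhere.

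The GC is a structure of the B-cell follicle in which activated B cells divide, mutate their antibody genes and are selected for binding to antigen. Cells cycle between a dark zone, where they divide, and a light zone, where they take up antigen with the B-cell receptor and present it to follicular helper T cells. Cells leave as memory B cells or as plasma cells, and the structure shrinks as the response wanes. Dying cells are cleared by macrophages, and the mouse spleen also makes red cells and granulocytes.

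Values are levels in log2 CPM, a count scaled to the size of its library, as deposited, and differences are log2 fold changes of late GC over peak GC with their standard error (SE). Of 23420 genes in each file, 11885 reached at least 0 log2 CPM (1 CPM) in at least 3 of the 24 libraries and were tested with limma. A gene was called at an adjusted p under 0.05, with adjustment over all genes tested. Correlations across genes were 0.984 to 0.991 between late GC libraries, 0.986 to 0.993 between peak GC libraries and 0.956 to 0.981 between the groups. The depth per library is unknown. In the deposited values, the mean over all libraries of a replicate number is the same for the 3 numbers, gene by gene, to within 0.00088 log2. A gene that is high in a late GC library therefore lowers the deposited values of the other libraries with its number, the peak GC library included, and the part of this in each result was not tested.

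Both groups carried the RNA of GC B cells. S1pr2, the receptor that confines B cells to the GC, had 8.62, 8.58 and 8.48 log2 CPM in late GC replicates 1, 2 and 3, against 8.76, 8.71 and 8.73 log2 CPM in peak GC replicates 1, 2 and 3. Bcl6, the repressor that GC cells need, had 8.08, 7.64 and 7.54 in late GC, against 7.93, 7.66 and 7.82 in peak GC. Neither gene passed the test (adjusted p = 0.247 for S1pr2 and 0.869 for Bcl6), although all late GC libraries lay below all peak GC libraries for S1pr2. Gcsam and Fas, which mark GC cells, had adjusted p = 0.897 and 0.913, and Nt5e, which encodes CD73, had adjusted p = 0.602. Among markers of division, Mki67 was between 9.81 and 10.10 log2 CPM in late GC and between 9.85 and 10.35 in peak GC (adjusted p = 0.585). Ddx3y, on the Y chromosome, was at the floor of the deposited values (under -5 log2) in all 6 libraries, and Xist was between 8.32 and 8.52 log2 CPM in late GC and between 8.05 and 8.54 in peak GC. A p that misses the threshold does not show that these levels were equal.

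The change from peak to late GC was broad and mostly small. Of the genes tested, 3277 were called (27.6%), 1258 of them higher in late GC (10.6%) and 2019 lower (17%). The genes that rose did so by more than the genes that fell: the median size of the change was 0.96 log2 among the higher and 0.49 log2 among the lower. At 2-fold or more, 614 genes were higher (5.17%) and 312 were lower (2.63%). The balance depended on the setting: a fit to the 6 libraries alone called 330 genes higher and 44 lower, and centring on B-cell genes gave 814 higher and 1036 lower. On the log2(CPM + 1) scale 17 genes were lower by 2-fold or more, and without peak GC replicate 1 the lower genes numbered 1291. Nearly all of the strong losses were of weakly expressed genes, since 5 of the genes lower by 2-fold or more had a mean of 3 log2 CPM (8 CPM) or more in peak GC and 307 had less. Counted without a test, all 3 late GC libraries lay above all 3 peak GC libraries for 1550 genes (13%) and below them for 2752 genes (23.2%). Over all genes tested the median difference was -0.07 log2. The calls held in each of 6 fits that left out 1 of the 6 libraries for 706 higher and 811 lower genes. Of genes named with a fold change, each kept its call in all 6 such fits unless the libraries whose removal ended it are given.

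Summed markers of macrophages and monocytes, neutrophils, red cells, mast cells and NK cells averaged higher in late GC, in different proportions in the 3 libraries. The summed level of 26 macrophage and monocyte genes was 4024, 2090 and 1850 CPM in late GC replicates 1, 2 and 3, against 1220, 1364 and 1452 CPM in peak GC replicates 1, 2 and 3. For 27 erythroid genes the sums were 2471, 1492 and 1890 CPM in late GC, against 562.6, 573 and 587 CPM in peak GC. For 21 neutrophil genes they were 1464, 329.3 and 123.6 CPM in late GC, against 33.9, 50.14 and 138.2 CPM in peak GC. Late GC replicate 1 stood far above the others for neutrophil RNA, while replicate 3 lay within the range of the peak GC libraries. Genes of mast cells, basophils and eosinophils, 15 in all, summed to 134.2, 147.5 and 227.2 CPM in late GC, against 35.03, 41.29 and 51.02 CPM in peak GC. For 12 NK cell genes the sums were 118.5, 162.8 and 322.5 CPM in late GC, against 60.95, 68.23 and 94.66 CPM in peak GC, so that replicate 3 was the highest of both kinds. The 13 pan B cell genes summed to 14500, 14750 and 14510 CPM in late GC, against 18300, 15590 and 14440 CPM in peak GC. In bulk samples, fewer cells of a type and less RNA per cell cannot be told apart.

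**Figure D1:**
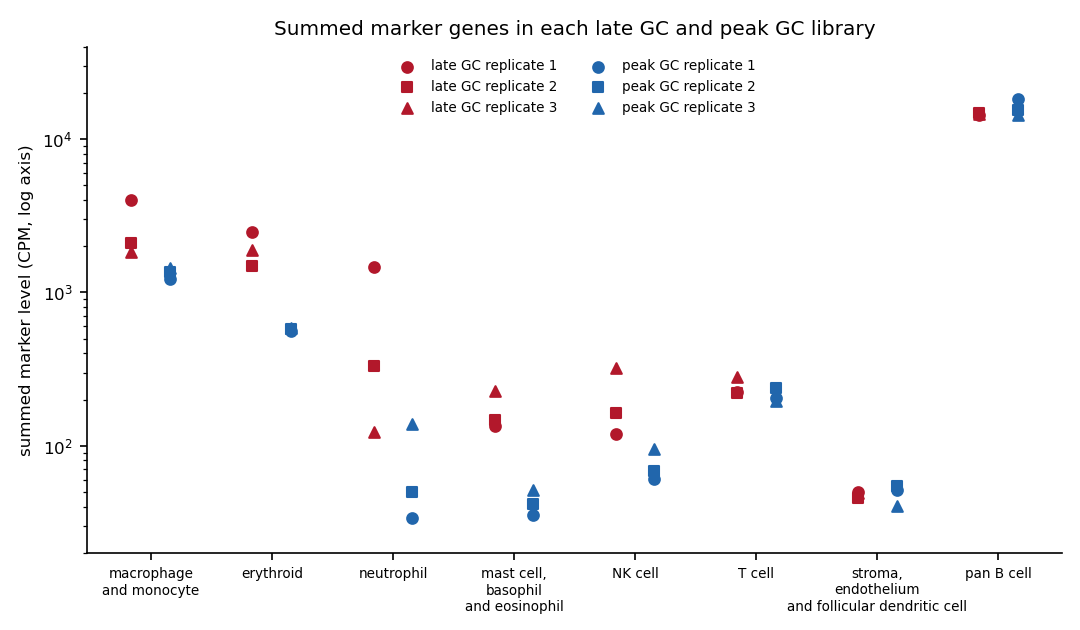
Summed level of marker genes (CPM, log axis) in each late GC library (red) and peak GC library (blue), with a symbol shape for each replicate number. Neutrophil RNA was 1464 CPM in late GC replicate 1 and 123.6 CPM in late GC replicate 3, erythroid RNA was above all peak GC libraries in all late GC libraries, and stromal RNA was 45.25 to 49.5 CPM in late GC and 40.36 to 54.34 CPM in peak GC.

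By gene, 16 of 23 tested erythroid genes rose, 14 of 23 macrophage and monocyte genes, 10 of 15 neutrophil genes and 8 of 10 genes of mast cells, basophils and eosinophils, and none of these lists had a member that fell. The share of all tested genes that rose was 10.6%. Beta-s, a beta-globin gene, had 9.79, 8.65 and 9.12 log2 CPM in late GC, against 6.84, 6.72 and 6.51 in peak GC, a difference of 2.5 (SE 0.35, adjusted p = 0.00013). Sptb, which encodes the spectrin beta chain of the red cell membrane, rose by 2.31 (SE 0.22), and Alas2, the first enzyme of heme synthesis in red cells, by 2.17 (SE 0.32, adjusted p = 0.000102). Car2 rose by 1.93 (SE 0.17, adjusted p = 8.51e-07) and was above the peak GC libraries in all late GC libraries. Hba-a1 was at the floor in all 6 libraries.

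On the macrophage and monocyte list, Lyz2, which encodes lysozyme, had 10.82, 9.21 and 8.60 log2 CPM in late GC, against 6.37, 6.80 and 7.73 in peak GC. Its difference was 2.58 (SE 0.54, adjusted p = 0.00261), and 1.49 with late GC replicate 3 alone. Lyz2 is among the genes summed to 4024 CPM in late GC replicate 1. Its order over the late GC libraries was that of the neutrophil genes Mpo and S100a9, and the part of each cell type was not tested. Csf1r, the receptor for the macrophage growth factor, rose by 2.21 (SE 0.41), Emr1, the gene of the macrophage antigen F4/80, by 1.47 (SE 0.27), and Cd68 by 0.88 (SE 0.17). The complement genes C1qa and C1qb were low, at 0.58 to 1.5 log2 CPM in late GC and -1.70 to 1.01 in peak GC, and did not pass the test (adjusted p = 0.431 for C1qa and 0.331 for C1qb). Of 8 tested genes of the tingible body macrophages that clear dying GC cells, 2 rose and 1 fell. The called share was 37.5%, beside 27.6% over all genes. The summed level of this list averaged 256 CPM in late GC and 272.5 CPM in peak GC.

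The neutrophil genes depended strongly on which late GC libraries were included. S100a9, an abundant calcium-binding protein of neutrophils, had 7.14, 5.71 and 4.2 log2 CPM in late GC, against 1.83, 2.52 and 4.00 in peak GC. The difference was 2.90 (SE 0.61, adjusted p = 0.00251) and all late GC libraries lay above all peak GC libraries, but late GC replicate 3 exceeded peak GC replicate 3 by little. Mpo, the granule peroxidase of neutrophils and their precursors, had 9.40, 6.55 and 5.15 in late GC, against 3.63, 3.77 and 5.64 in peak GC, overlapped between the groups and did not pass the test (adjusted p = 0.0684). Camp rose by 2.39 (SE 0.68, adjusted p = 0.0144), a call that was lost without late GC replicate 1, late GC replicate 2 or peak GC replicate 1. Without late GC replicate 3 all 15 tested neutrophil genes rose. Without late GC replicate 1, 6 rose, and with late GC replicate 3 alone none did (0), with a median difference of 0.85 log2 against 2.61 with all libraries.

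Mast cell and basophil genes followed another order. Cpa3, a protease of mast cells and basophils, had 5.28, 6.06 and 6.77 log2 CPM in late GC, against 3.89, 3.97 and 4.38 in peak GC. The groups did not overlap, and the difference was 1.96 (SE 0.46, adjusted p = 0.00413). Kit, the stem cell factor receptor that mast cells keep, rose by 1.84 (SE 0.19) and Gata2, a transcription factor of these lineages, by 2.01 (SE 0.42, adjusted p = 0.00165). Of 11 NK cell genes 3 rose, with 1 without late GC replicate 3 and 5 without late GC replicate 1, and Gzmb, which encodes granzyme B, rose by 1.87 (SE 0.32). Ncr1, on the same list, overlapped between the groups, with 1.2, 2.5 and 3.3 log2 CPM in late GC, against 1.3, 1.5 and 1.7 in peak GC. Of 12 T-cell genes 2 rose, Il7r and Cd3d. Cd3d lost its call without late GC replicate 3, peak GC replicate 1 or peak GC replicate 2, and Il7r without late GC replicate 3 or peak GC replicate 1, and Il7r differed by -0.41 with the marker sums as covariates. Of 10 dendritic cell genes 5 rose, among them Itgax by 1.76 (SE 0.26). Differences in this list went down to -0.98, with 2 below 0. Flt3 was between 5.63 and 5.82 log2 CPM in late GC and between 5.80 and 6.06 in peak GC. Ly6d and Bst2 of this list are also on the naive B-cell and interferon lists. The shares that rose were 27.3%, 16.7% and 50% for NK cell, T-cell and dendritic cell genes, beside 10.6% of all genes. Of 6 tested genes of stroma, endothelium and follicular dendritic cells, limma called 0, and Col1a1, which encodes a collagen chain, was between -5.55 and -4.62 log2 in late GC and between -4.87 and -3.91 in peak GC.

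To separate B-cell RNA from these, the 614 genes higher by 2-fold or more were sorted by where else they were expressed. Class 1 held 57 genes on a list of markers of another cell type, class 2 held 222 genes with a mean of 3 log2 CPM or more in at least 1 group of B cells other than late GC and naive, and class 3 held the other 335. Late GC replicate 1 was the highest late GC library for 38, 171 and 209 genes of classes 1, 2 and 3, and for 418 of all 614. The median range over the 3 late GC libraries was 1.13 log2 in class 1, 0.92 in class 2 and 1.13 in class 3, against 0.25 over all genes tested. The median difference was 2.05, 1.61 and 1.75 log2 in classes 1, 2 and 3 with all libraries, and 1.99, 1.51 and 1.63 with late GC replicate 3 alone. Class 2 is not a list of B-cell genes, since the other groups held RNA of macrophage and monocyte genes too. Their sum averaged 1345 CPM in peak GC, 1750 CPM in in vivo activated cells and 1157 CPM in naive cells. Of the class 2 genes, 188 also reached 3 log2 CPM in naive, in vivo activated or in vitro activated cells, and 34 did so in GC groups alone. Reaching it does not tell which cells made the RNA.

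**Figure D2:**
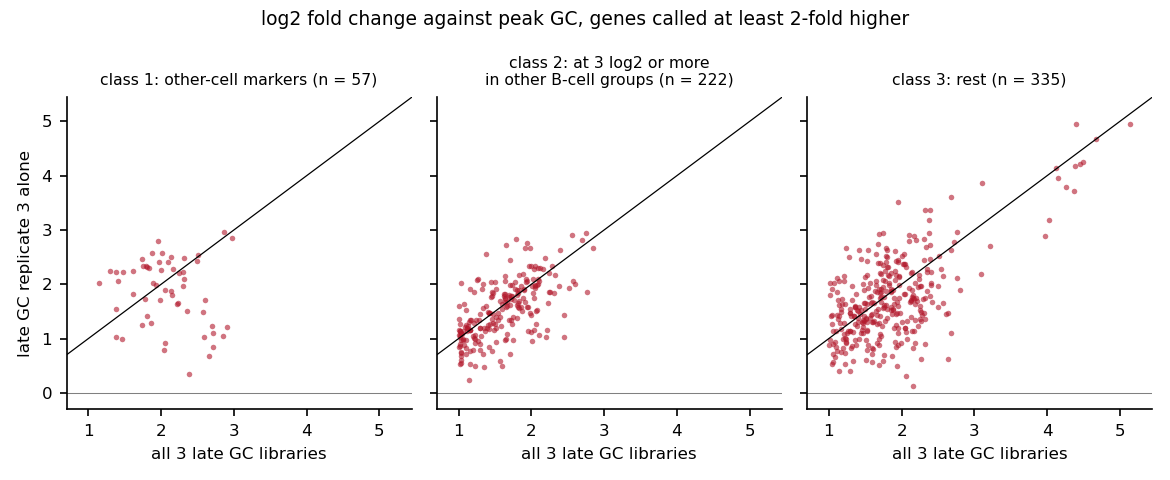
Each point is 1 of the 614 genes called at least 2-fold higher in late GC, with its log2 fold change over peak GC from all 3 late GC libraries (horizontal axis) and from late GC replicate 3 alone (vertical axis). The diagonal marks equal values, and medians were 2.05, 1.61 and 1.75 with all libraries and 1.99, 1.51 and 1.63 with replicate 3 alone in classes 1, 2 and 3.

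Lrp1, Fn1, Ahnak and Plac8 were in class 2. Lrp1, a scavenger receptor abundant in macrophages, had 4.94, 3.89 and 4.18 log2 CPM in late GC, against 1.61, 1.25 and 1.6 in peak GC, and averaged -0.52 log2 at 24 h in vitro. Fn1, which encodes fibronectin, had 8.89, 7.15 and 6.84 in late GC, against 4.42, 4.72 and 5.45 in peak GC, and averaged -0.93 log2 at 24 h in vitro. Both were lower in naive and in vitro activated cells than in late GC. Both were highest in late GC replicate 1, which had 4024 CPM of macrophage and monocyte genes and 1464 CPM of neutrophil genes. Ahnak, a large scaffold protein beneath the cell membrane (chr19:8989284-9076935 in GRCm38), had 6.73, 6.05 and 6.55 log2 CPM in late GC, against 3.63, 3.56 and 4.04 in peak GC. It averaged 7.04 log2 in naive cells and 4.08 at 24 h in vitro, its late GC libraries lay within 0.67 log2, and its difference was 2.70 (SE 0.15, adjusted p = 1.13e-09). Plac8, also high in in vivo activated cells at 10.12 log2, rose by 2.52 (SE 0.40) but had 7.45 in late GC replicate 1, against 6.07 and 5.98 in late GC replicates 2 and 3. The part of other cells in these differences was not tested.

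In a second approach, the summed macrophage, neutrophil and erythroid levels were entered as covariates in the same fit. These sums need not come from other cells alone. The erythroid sum averaged 738.1 CPM at 24 h in vitro, against 574.2 CPM in peak GC. The macrophage and monocyte sum averaged 591.9 to 810.5 CPM in vitro, where C1qa averaged -4.90 to -3.95 log2. The fit therefore cannot tell B-cell RNA from RNA of other cells. Late and peak GC libraries differed in these sums, so the median SE was 0.251 log2 with them and 0.105 without them, and 25 of 11824 genes outside the 3 lists were called (0.211%), 9 higher and 16 lower. At an unadjusted p under 0.05, 1723 genes passed. Of the 25, 19 were also called in the same direction without covariates. Cd38 differed by -1.75 (adjusted p = 0.0119) with covariates, Slco4a1 by -1.82 (adjusted p = 0.0161), Ahnak by 2.10 (adjusted p = 0.0199), Vopp1 by 1.35 (adjusted p = 0.0161), Plbd1 by 1.01 (adjusted p = 0.0199) and Il9r by 2.15 (adjusted p = 0.016). Cacna1d, a calcium channel subunit, differed by 2.56 (adjusted p = 0.00635) and Fancb, a DNA repair gene, by -2.08 (adjusted p = 0.0287).

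Cd38 showed the clearest loss. It encodes a surface enzyme that consumes NAD and is kept by naive and memory B cells but lost by mouse GC B cells (chr5:43868809-43912374 in GRCm38). Its level was 0.18, 0.12 and 0.46 log2 CPM in late GC replicates 1, 2 and 3, against 2.44, 2.23 and 1.81 log2 CPM in peak GC replicates 1, 2 and 3. The groups did not overlap, and the difference was -1.91 (SE 0.12, adjusted p = 1.68e-09), or -1.67 with late GC replicate 3 alone. Ccr6, a chemokine receptor of naive and memory B cells, had 0.17, 0.73 and 0.73 in late GC, against 1.25, 1.03 and 1.52 in peak GC, a difference of -0.72 (SE 0.14, adjusted p = 0.00112). With the marker sums as covariates the difference of Ccr6 was 0.22, of the opposite sign, while that of Cd38 stayed at -1.75. The median SE of that fit was 0.251 log2. Over the stages, Cd38 averaged 3.77 ± 0.12, 2.16 ± 0.32 and 0.25 ± 0.18 log2 CPM (SD, n = 3) and Ccr6 averaged 2.79, 1.27 and 0.54 log2 CPM in early, peak and late GC. Of the 5 genes lower by 2-fold or more from 3 log2 CPM or above in peak GC, Slco4a1, an organic anion transporter (chr2:180456226-180474853 in GRCm38), had 4.45, 4.17 and 3.81 in late GC, against 5.31, 5.64 and 6.20 in peak GC, a difference of -1.57 (SE 0.21, adjusted p = 5.16e-05). Stag3, a cohesin subunit known from meiosis, differed by -1.30 (SE 0.24), Lrrc32, which presents latent TGF-beta at the cell surface, by -1.23 (SE 0.21), Col11a2, a collagen chain, by -1.14 (SE 0.16) and Slc30a4, a zinc transporter, by -1.01 (SE 0.13).

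**Figure D3:**
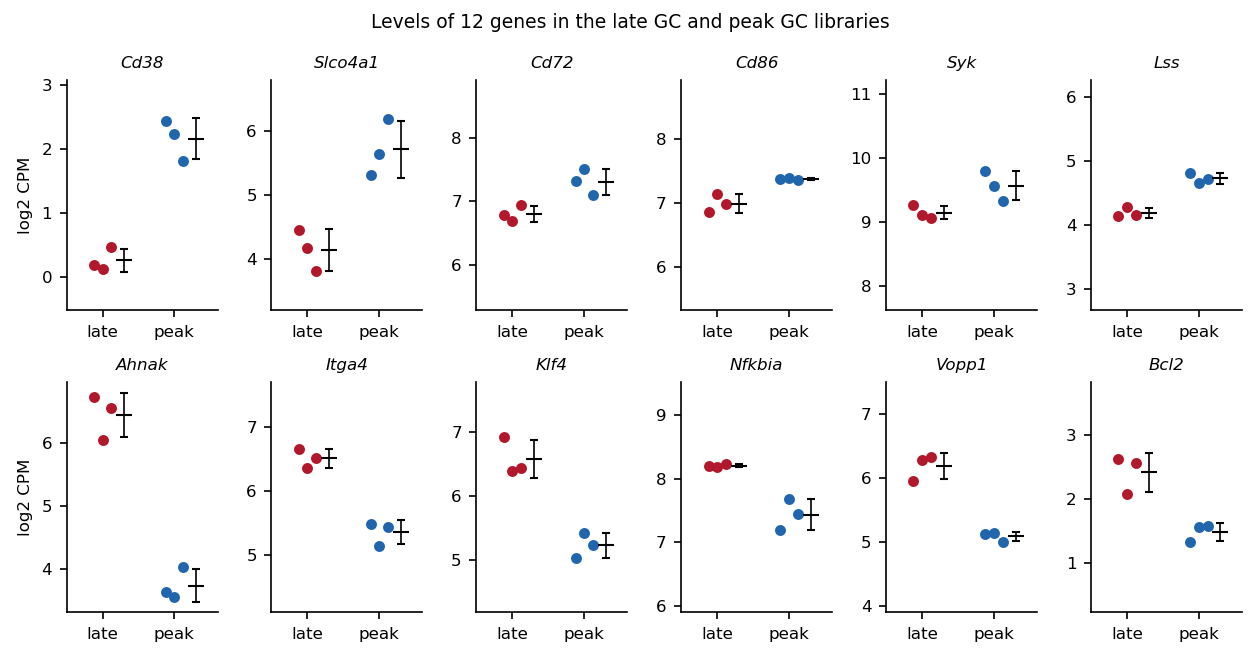
Level in log2 CPM of 12 genes in each late GC (red) and peak GC (blue) library, with the mean and SD over 3 libraries beside them. The upper row shows genes lower in late GC and the lower row genes higher in late GC, and the groups did not overlap for any of the 12. All 12 were picked from called genes, and over all tested genes 13% lay wholly above and 23.2% wholly below in late GC.

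Of 29 tested genes of B-cell receptor signalling, 13 fell by small amounts and 3 rose, a called share of 55.2% beside 27.6% over all genes, with a median difference of -0.20 log2 beside -0.07. Syk, the kinase that first reads the triggered receptor, had 9.26, 9.11 and 9.06 log2 CPM in late GC, against 9.79, 9.57 and 9.33 in peak GC (difference -0.42, SE 0.09, adjusted p = 0.00256). Btk, the kinase downstream of Syk, had 7.58, 7.64 and 7.62 in late GC, against 8.06, 7.92 and 7.85 in peak GC (difference -0.33, SE 0.06, adjusted p = 0.000333). Blnk, an adaptor of the same pathway, fell by 0.24 log2 (SE 0.05). Cd72, an inhibitory coreceptor, had 6.79, 6.69 and 6.94 in late GC, against 7.32, 7.51 and 7.09 in peak GC (difference -0.50, SE 0.09, adjusted p = 0.000337), and Fcgr2b, the inhibitory IgG receptor, and Ptpn6, which encodes the phosphatase SHP-1, fell by 0.28 (SE 0.06) and 0.30 (SE 0.07), the values of Ptpn6 overlapping. The count of lower members was 8 without peak GC replicate 1 and 19 without peak GC replicate 3. With libraries centred on the pan B cell and GC identity genes, some of which are also on this list, it was 4, and the median difference was -0.23 log2. Of the 3 genes that rose, Fyb, an adaptor of T cells and myeloid cells, rose by 1.97 (SE 0.26), Bcl10 rose by 0.17 and Pik3r1 by 0.24. Bcl10 lost its call without late GC replicate 1 or 2 or peak GC replicate 1, and Pik3r1 kept it only without peak GC replicate 1.

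Of 13 pan B cell genes 4 fell and 0 rose, and of 20 GC identity genes 3 fell and 3 rose. Their called shares were 30.8% and 30%, near the 27.6% over all genes. Bank1, a B-cell scaffold protein, had 6.80, 6.86 and 6.96 log2 CPM in late GC, against 7.64, 7.58 and 7.24 in peak GC (difference -0.61, SE 0.08, adjusted p = 2.17e-05). Cd79a, Pax5 and Ms4a1 did not pass the test (adjusted p = 0.661, 0.904 and 0.695). Among GC genes, Spib and Neil1 fell by 0.24 (SE 0.06) and 0.31 (SE 0.08). Lmo2, a transcription cofactor of GC cells, rose by 0.63 (SE 0.09, adjusted p = 6.95e-05), and Gcnt2, which branches sugar chains, had 2.55, 2.8 and 2.89 in late GC, against 0.61, 0.75 and 1.13 in peak GC (difference 1.92, SE 0.35, adjusted p = 0.000503). Rgs13, which dampens chemokine receptor signals in GC cells, had 8.68, 8.84 and 8.57 in late GC, against 8.29, 8.0 and 8.38 in peak GC (difference 0.47, SE 0.14, adjusted p = 0.0203), a call lost without late GC replicate 2 or peak GC replicate 2.

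Of 26 genes of T-cell help and costimulation 7 fell and 2 rose, and of 15 genes of MHC class II presentation 3 fell and 1 rose, called shares of 34.6% and 26.7% beside 27.6% over all genes. Differences lay between -0.58 and 1.34 log2 for the help genes and between -0.47 and 0.35 for the presentation genes. Without peak GC replicate 1, 4 help genes fell, and without late GC replicate 1, 1 presentation gene did. Cd86, a costimulatory ligand and a light zone marker, had 6.85, 7.13 and 6.98 log2 CPM in late GC, against 7.38, 7.39 and 7.36 in peak GC (difference -0.39, SE 0.08, adjusted p = 0.00126). Tnfrsf13c, the receptor for the survival factor BAFF, fell by 0.30 (SE 0.06). H2-DMb1, a chain of the peptide exchange protein, fell by 0.47 (SE 0.12), but its reads may be shared with its near copy H2-DMb2. With the marker sums as covariates the differences of Tnfrsf13c and H2-DMb1 were 0.023 and 0.20, of the opposite sign but smaller than the median SE of that fit, 0.251 log2. Ctss, the protease that trims the invariant chain, rose by 0.35 (SE 0.05). Of 13 dark zone genes 1 rose and 1 fell, and of 21 light zone genes 3 rose and 4 fell, or 2 without late GC replicate 1. The called shares of dark and light zone genes were 15.4% and 33.3%, beside 27.6% over all genes. The zone markers Cxcr4 and Cd83 did not pass the test (adjusted p = 0.594 and 0.393), with 10.81, 10.39 and 10.14 log2 CPM of Cxcr4 in late GC, against 9.78, 10.31 and 10.42 in peak GC.

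Cholesterol synthesis was the gene list with the largest share of lower members. Of its 24 tested members 15 fell and 0 rose, the other 9 had differences below 0 as well, and the median difference was -0.28 log2. The share that fell was 62.5%, beside 17% of all genes. Lss, which closes the sterol rings (chr10:76531565-76557139 in GRCm38), had 4.14, 4.28 and 4.17 log2 CPM in late GC, against 4.83, 4.66 and 4.73 in peak GC (difference -0.54, SE 0.09, adjusted p = 0.000245). Acat2, at the entry of the pathway, fell by 0.49 (SE 0.09), Hsd17b7, a later enzyme, by 0.45 (SE 0.09), Mvd, of the mevalonate steps, by 0.36 (SE 0.08) and Sqle, the monooxygenase before Lss, by 0.34 (SE 0.07). For these genes the groups did not overlap, as for the 23.2% of all tested genes whose late GC libraries all lay lower. Idi1 and Hmgcs1 fell by 0.43 (SE 0.16) and 0.28 (SE 0.08), Idi1 losing its call without late GC replicate 1 or 3 or peak GC replicate 1 or 3 and Hmgcs1 without peak GC replicate 1 or 3. Fdft1, which makes squalene, fell by 0.21 (SE 0.07), a call lost when any 1 of the late GC libraries or peak GC replicate 1 was left out. Fewer members fell without peak GC replicate 1 (8), with late GC replicate 3 alone (8) and with libraries centred on B-cell genes (5, with a median of -0.32).

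Sterol genes are known to be driven by the factor SREBP, which binds sterol elements next to CCAAT boxes, the site of the factor NF-Y. The promoters of 4 members that fell are shown for their CCAAT boxes, which are in capitals as CCAAT or, on the other strand, ATTGG. Each is the 250 bases before the start of 1 RefSeq transcript of the gene (GRCm38.p6), which for Lss and Hsd17b7 lies inside the full interval of the gene. They are printed 5′ to 3′ on the strand of the gene. Lss lies on the plus strand at chr10:76531355-76531604, Hsd17b7 on the minus strand at chr1:169969206-169969455, Mvd on the minus strand at chr8:122443423-122443672 and Idi1 on the plus strand at chr13:8885356-8885605.
Lss: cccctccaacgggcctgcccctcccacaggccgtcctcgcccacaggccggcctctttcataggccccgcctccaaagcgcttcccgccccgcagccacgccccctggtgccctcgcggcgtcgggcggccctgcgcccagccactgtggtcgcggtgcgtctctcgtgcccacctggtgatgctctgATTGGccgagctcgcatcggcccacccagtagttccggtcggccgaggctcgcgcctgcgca
Hsd17b7: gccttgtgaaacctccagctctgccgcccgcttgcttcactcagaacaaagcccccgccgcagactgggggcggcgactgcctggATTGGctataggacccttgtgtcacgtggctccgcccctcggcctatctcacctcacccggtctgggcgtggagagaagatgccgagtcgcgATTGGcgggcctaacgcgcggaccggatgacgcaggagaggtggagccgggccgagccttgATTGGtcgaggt
Mvd: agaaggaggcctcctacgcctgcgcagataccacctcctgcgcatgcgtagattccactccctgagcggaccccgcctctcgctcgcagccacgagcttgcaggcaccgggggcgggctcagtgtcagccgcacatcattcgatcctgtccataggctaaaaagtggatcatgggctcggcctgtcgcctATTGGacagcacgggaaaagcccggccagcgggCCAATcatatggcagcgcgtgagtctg
Idi1: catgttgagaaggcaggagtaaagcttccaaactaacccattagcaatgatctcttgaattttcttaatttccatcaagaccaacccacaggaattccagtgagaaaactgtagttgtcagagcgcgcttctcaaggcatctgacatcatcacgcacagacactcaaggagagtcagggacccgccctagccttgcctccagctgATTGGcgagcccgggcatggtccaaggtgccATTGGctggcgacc
A script found 1, 3, 2 and 2 boxes in Lss, Hsd17b7, Mvd and Idi1. Of the 15 genes that fell, 10 had a promoter in the table and 9 of these held CCAAT on either strand, as did 6 of 7 promoters of tested members without a call and 34.5% of 27025 promoters. The sterol element TCACNCCAC was in 1 of the 10, that of Hmgcs1, and in 1.04% of all promoters. A match is a description of the letters and not a measured site.

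Shares of DNA replication and mitosis genes that fell were near that of all genes, while nearly all members had differences below 0. Of 34 S phase genes 7 fell and of 30 mitosis genes 5 fell, 20.6% and 16.7% beside 17% of all genes, and 0 of either rose. Differences were below 0 in 31 of the 34 and in all 30 tested members, with medians of -0.13 and -0.24 log2 beside -0.07 over all genes tested. Rfc3, a subunit of the clamp loader at the replication fork, had 6.44, 6.54 and 6.48 log2 CPM in late GC, against 6.70, 6.77 and 6.85 in peak GC (difference -0.29, SE 0.07, adjusted p = 0.00316). Gins3, a part of the replicative helicase, fell by 0.49 (SE 0.11). Aurkb, a mitotic kinase, had 6.61, 6.42 and 6.42 in late GC, against 6.79, 6.68 and 6.98 in peak GC (difference -0.34, SE 0.10, adjusted p = 0.0152), lost without late GC replicates 2 or 3 or peak GC replicate 3. The mitosis count was 0 without late GC replicate 2 and 13 without peak GC replicate 2, and the S phase count was 3 without peak GC replicate 2. With libraries centred on B-cell genes 0 mitosis genes and 1 S phase gene fell, while the medians were -0.28 and -0.17 log2. In the 250 bases before the start, CCAAT was in 4 of 4 promoters of mitosis genes that fell and 16 of 22 without a call, and in 6 of 7 and 11 of 21 of S phase genes. The cell-cycle element TTTGAA or TTCGAA was in 2 of the 4 mitosis promoters, in 7 of 22 of members without a call and in 17.4% of all promoters, on either strand. The E2F motif TTTCCCGC or TTTGGCGC was in 2 of the 7 S phase promoters, in 4 of 21 of members without a call and in 1.35% of all promoters.

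Of 22 G1 regulators 3 rose and 2 fell, a called share of 22.7% beside 27.6% over all genes, with a median difference of 0.02 log2. Single members changed by more, and 3 are given here. Cdkn1a, the p21 inhibitor of cyclin-dependent kinases, had 5.28, 4.52 and 4.81 log2 CPM in late GC, against 2.17, 2.85 and 3.43 in peak GC (difference 2.06, SE 0.27, adjusted p = 2.71e-05). Rb1, the retinoblastoma protein that holds cells before S phase, had 5.79, 5.77 and 5.75 in late GC, against 5.28, 5.29 and 5.31 in peak GC (difference 0.48, SE 0.09). Cdk2, the kinase that starts S phase, had 6.54, 6.51 and 6.43 in late GC, against 6.85, 6.83 and 6.81 in peak GC (difference -0.34, SE 0.06, adjusted p = 0.000176). For each of the 3 genes the groups did not overlap. Over all tested genes, late GC libraries lay wholly above for 13% and wholly below for 23.2%. Of 26 genes of mutation and repair 5 fell and 0 rose (19.2%), and of 33 MYC and ribosome biogenesis genes 6 fell and 0 rose (18.2%), beside 17% of all genes that fell. Without late GC replicate 3 these counts were 3 and 2. Polr1b, a subunit of RNA polymerase I, had 3.70, 3.41 and 3.29 in late GC, against 4.14, 4.00 and 3.89 in peak GC (difference -0.54, SE 0.10). Myc itself had 6.76, 6.63 and 6.71 in late GC, against 6.29, 6.87 and 6.71 in peak GC (adjusted p = 0.591).

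**Figure D4:**
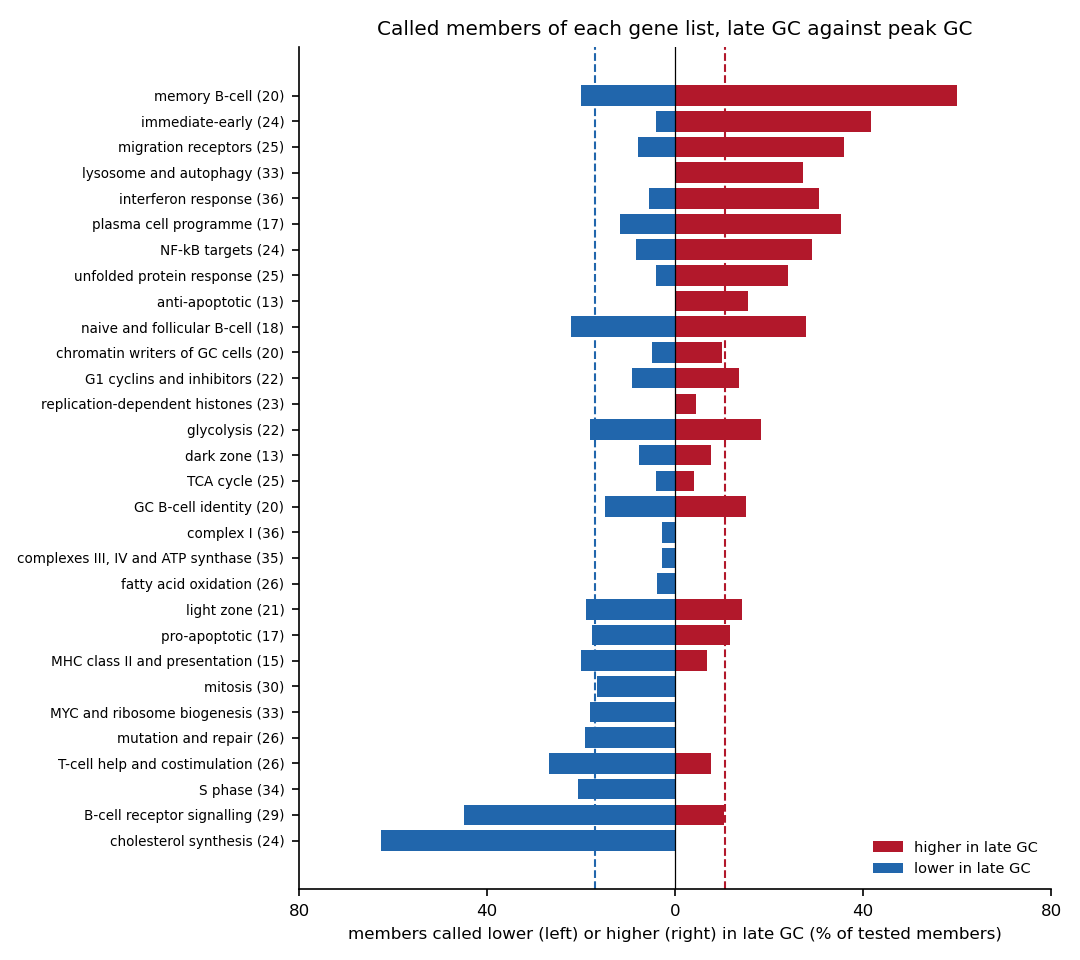
Members of each pathway or state list, cell type marker lists left out, called higher (red, right) or lower (blue, left) in late GC as a percentage of tested members, whose number stands in brackets. Dashed lines mark the shares of all tested genes, 10.6% higher and 17% lower, and cholesterol synthesis (15 of 24 lower) and memory B-cell genes (12 of 20 higher) lie farthest from them among these lists.

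Genes associated with memory B cells had the largest share of higher members among the pathway and state lists. Of 20 tested, 12 rose and 4 fell, and the median difference was 0.47 log2. The called share was 80%, beside 27.6% over all genes, of which 10.6% rose and 17% fell. Bcl2, the survival factor that GC cells repress, had 2.63, 2.07 and 2.55 log2 CPM in late GC, against 1.32, 1.55 and 1.57 in peak GC (difference 0.93, SE 0.12, adjusted p = 1.31e-05). Il9r, a cytokine receptor of memory B cells, had 4.47, 4.25 and 4.52 in late GC, against 3.53, 3.65 and 3.01 in peak GC (difference 1.01, SE 0.19, adjusted p = 0.000812). Both were above all peak GC libraries in all late GC libraries. Ski, a transcriptional corepressor, rose by 0.84 (SE 0.17), Cd80, a ligand of CD28, by 0.89 (SE 0.22) and Cd44, an adhesion receptor, by 0.56 (SE 0.08). Members that fell were Cd38 and Ccr6, given above, Cxcr3, which differed by -1.0 (SE 0.28), and Pdcd1lg2, which encodes PD-L2 and differed by -0.58 (SE 0.16), both losing their call without late GC replicate 1. Tlr7, Spn and Klf3 of this list were highest in late GC replicate 1, and several of its genes are also made by myeloid cells, whose part was not tested. With the marker sums as covariates Tlr7, Spn, Klf3 and Pdcd1lg2 had differences of the opposite sign. Those of Spn and Pdcd1lg2 were smaller than the median SE of that fit, 0.251 log2. With late GC replicate 3 alone, 10 members rose and 3 fell.

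Receptors of migration and adhesion rose in 9 of 25 cases and fell in 2, a called share of 44% beside 27.6% over all genes. Itga4, the integrin chain that pairs with the beta 1 and beta 7 chains (chr2:79255426-79333114 in GRCm38), had 6.65, 6.36 and 6.51 log2 CPM in late GC, against 5.48, 5.14 and 5.43 in peak GC (difference 1.16, SE 0.13, adjusted p = 6.47e-06). Its partners rose too, Itgb7 by 1.69 (SE 0.19) and Itgb1 by 0.37 (SE 0.06). Gpr132, a G-protein coupled receptor, rose by 1.57 (SE 0.15). Ccr7, which guides B cells toward the T-cell zone, had 5.59, 5.57 and 5.60 in late GC, against 3.94, 4.80 and 5.31 in peak GC (difference 0.90, SE 0.26, adjusted p = 0.019), a call lost without peak GC replicate 1. Cxcr5, which brings B cells into the follicle, overlapped between the groups (adjusted p = 0.764). With libraries centred on B-cell genes 5 rose, and the median difference was 0.24 log2 centred and 0.28 uncentred.

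Immediate-early genes, which answer stimulation within minutes, rose in 10 of 24 cases and fell in 1. The called share was 45.8%, beside 27.6% over all genes. Klf4, a factor that restrains the division of B cells (chr4:55527137-55532475 in GRCm38), had 6.93, 6.39 and 6.44 log2 CPM in late GC, against 5.04, 5.42 and 5.23 in peak GC (difference 1.35, SE 0.16, adjusted p = 1.3e-05). Fosb, a partner in the AP-1 factor, had 9.37, 9.0 and 8.87 in late GC, against 7.75, 8.23 and 7.59 in peak GC (difference 1.22, SE 0.29). Ier3 and Atf3 rose by 2.03 (SE 0.39) and 1.95 (SE 0.38). Klf2, a factor of resting lymphocytes on another list, had 7.39, 7.56 and 7.8 in late GC, against 6.26, 7.07 and 6.67 in peak GC (difference 0.92, SE 0.23, adjusted p = 0.0073), lost without peak GC replicate 1. The immediate-early count was 5 without late GC replicate 3, 4 with that replicate alone and 5 with libraries centred on B-cell genes, where the median was 0.33 log2, against 0.37 uncentred.

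Among 24 NF-kB target genes 7 rose and 2 fell, a called share of 37.5% beside 27.6% over all genes, and 4 rose without late GC replicate 3. Nfkbia, the inhibitor that NF-kB induces against itself, had 8.20, 8.18 and 8.22 log2 CPM in late GC, against 7.19, 7.67 and 7.45 in peak GC (difference 0.76, SE 0.10, adjusted p = 2.12e-05). Tnfaip3, the A20 brake on the same pathway, rose by 0.55 (SE 0.14), a call lost without late GC replicate 3. Ccl3 and Ccl4, chemokines made by activated B cells and by myeloid cells, rose by 1.94 (SE 0.34) and 1.71 (SE 0.27). Nfkb1, a subunit of the factor, fell by 0.20 (SE 0.05).

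Interferon response genes rose in 11 of 36 cases and fell in 2, with a median difference of 0.18 log2. The called share was 36.1%, beside 27.6% over all genes. Rsad2, the antiviral protein viperin, had 2.86, 2.32 and 2.41 log2 CPM in late GC, against 0.50, 0.61 and -0.22 in peak GC (difference 2.23, SE 0.55, adjusted p = 0.00513). Gbp7 and Irf1 rose by 1.8 (SE 0.23) and 0.47 (SE 0.09). With the marker sums as covariates Gbp7 differed by -0.10, beside a median SE of 0.251 log2 in that fit. The list did not move as a whole, since Stat2, the signal transducer of type I interferon, had 4.98, 4.80 and 4.97 in late GC, against 5.71, 5.42 and 5.19 in peak GC (difference -0.52, SE 0.13, adjusted p = 0.0048). The interferon motif TTTCNNTTT, on either strand, was in 8 of 11 promoters of called members, in 11 of 15 of members without a call and in 9.52% of all promoters. With late GC replicate 3 alone 5 members rose, and several of these genes are active in macrophages, whose part was not tested.

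Of 17 genes of the plasma cell programme 6 rose and 2 fell, and 13 had differences above 0. Of 9 tested plasma cell markers 4 rose and 0 fell, and all 9 had differences above 0. The 2 lists are not separate, since all of these markers but Ly6c2 are also on the programme list. Ly6c2 is also on the macrophage and monocyte list. Called shares were 47.1% for the programme and 44.4% for the markers, beside 27.6% over all genes. Without late GC replicate 1, 2 programme genes and 1 marker rose, and without peak GC replicate 3, 10 and 7 did. With late GC replicate 3 alone, limma called 2 programme genes and 0 markers higher. Prdm1, which encodes the plasma cell regulator Blimp-1, had 3.36, 2.81 and 2.98 log2 CPM in late GC, against 2.06, 2.33 and 2.63 in peak GC (difference 0.71, SE 0.20, adjusted p = 0.0139), lost without late GC replicate 1 or peak GC replicate 1. Irf4 had 8.50, 8.30 and 7.98 in late GC, against 7.04, 8.0 and 8.61 in peak GC, overlapped and did not pass the test (adjusted p = 0.336). Derl3, of the machinery that removes misfolded proteins, fell by 0.46 (SE 0.12). Bach2, a repressor of the plasma cell fate, and Foxo1, a dark zone factor, did not pass the test (adjusted p = 0.523 and 0.0616). Of 25 unfolded protein response genes 6 rose and 1 fell, a called share of 28% beside 27.6% over all genes. The count of higher members was 2 without peak GC replicate 1, 9 without peak GC replicate 3 and 1 with libraries centred on B-cell genes, with a median of 0.04 log2 centred and 0.08 uncentred.

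Lysosome and autophagy genes rose in 9 of 33 cases and fell in 0. The called share of 27.3% was near the 27.6% over all genes, of which 10.6% rose and 17% fell. Ctsd, a lysosomal protease, had 7.34, 6.82 and 7.18 log2 CPM in late GC, against 5.87, 6.20 and 6.38 in peak GC (difference 0.96, SE 0.12, adjusted p = 1.46e-05). Psap, a lysosomal lipid-binding precursor, had 10.14, 9.05 and 9.21 in late GC, against 7.98, 8.29 and 8.47 in peak GC (difference 1.22, SE 0.19). Ctsb and Ctsl rose by 0.71 (SE 0.12) and 1.48 (SE 0.24). Ctsb, Ctsd, Ctsl and Psap were highest in late GC replicate 1, which had 4024 CPM of macrophage and monocyte genes and 1464 CPM of neutrophil genes. With the marker sums as covariates Ctsb and Psap differed by -0.33 and -0.084, while Ctsd and Ctsl kept their sign. The median SE of that fit was 0.251 log2. What other cells contributed to these genes was not tested.

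Few genes of respiration were called. limma called 1 of 36 complex I genes, 1 of 35 genes of complexes III, IV and ATP synthase, 2 of 25 genes of the TCA cycle and 1 of 26 genes of fatty acid oxidation, which is 2.78%, 2.86%, 8% and 3.85% beside 27.6% over all genes. The median differences of these lists were -0.03, -0.02, -0.01 and 0.03 log2. Complex I differences lay between -0.20 and 0.13 log2 and those of fatty acid oxidation between -0.35 and 0.20. Acsl3, which activates fatty acids, was the gene of that list that fell, by 0.30 (SE 0.08), a call lost without peak GC replicate 1. In glycolysis 4 of 22 genes rose and 4 fell (36.4% called), and without late GC replicate 1, 2 rose. Hk1 and Hk2, hexokinases of the first step, rose by 0.39 (SE 0.09) and 0.51 (SE 0.11), and Ldha, which makes lactate, had 9.0, 8.91 and 8.84 in late GC, against 9.04, 9.10 and 9.28 in peak GC (difference -0.22, SE 0.07, adjusted p = 0.0148), lost without late GC replicate 3 or peak GC replicate 3.

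Npy1r and Rgs13, chosen after their values were seen, were higher at each later stage of the GC. Npy1r, a receptor for neuropeptide Y (chr8:66697149-66706800 in GRCm38), had 2.90, 3.43 and 3.09 log2 CPM in late GC, against -0.09, 0.55 and 0.92 in peak GC (difference 2.68, SE 0.69, adjusted p = 0.00733), a call lost without peak GC replicate 1. It averaged -3.88 ± 1.30 log2 CPM (SD, n = 3) in early GC and was at the floor in naive cells, in vivo activated cells and at 24 h in vitro. Over early, peak and late GC, Rgs13 averaged 7.31 ± 0.10, 8.23 ± 0.20 and 8.70 ± 0.13 log2 CPM (SD, n = 3). Ahnak did not follow such a course, with averages of 3.95 ± 0.17, 3.74 ± 0.26 and 6.44 ± 0.35 log2 CPM, and Lss averaged 4.98 ± 0.18, 4.74 ± 0.09 and 4.19 ± 0.07 log2 CPM. Vopp1, a protein of the lysosomal membrane (chr6:57752264-57827983 in GRCm38), had 5.96, 6.29 and 6.33 in late GC, against 5.12, 5.14 and 5.0 in peak GC (difference 1.10, SE 0.11, adjusted p = 9.58e-07), and Plbd1, a phospholipase-like protein, rose by 0.97 (SE 0.08, adjusted p = 8.35e-08).

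**Figure D5:**
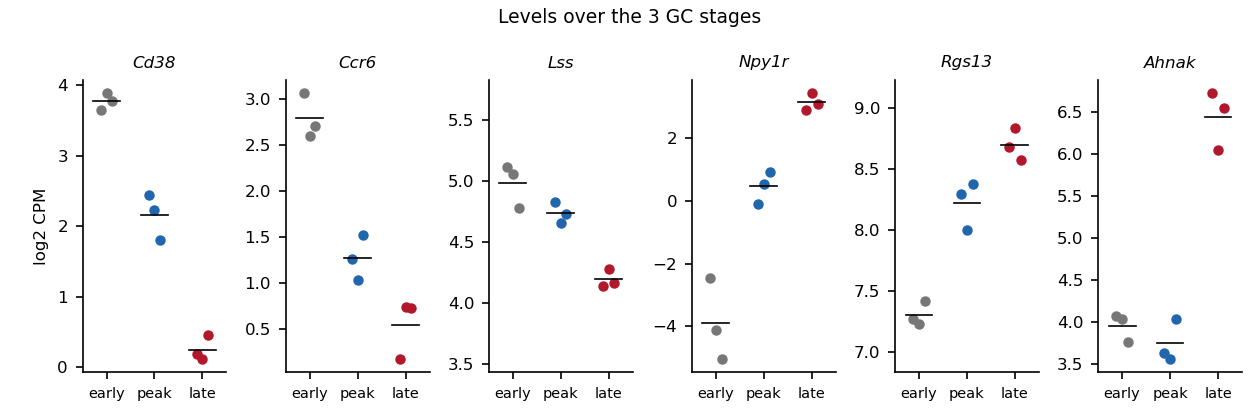
Levels in log2 CPM of 6 genes in each early (grey), peak (blue) and late (red) GC library, with a line at the mean. Cd38 averaged 3.77, 2.16 and 0.25 and Npy1r averaged -3.88, 0.46 and 3.14 in early, peak and late GC, while Ahnak was higher in late GC than in both earlier stages.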

How the data were processed

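RNA was sequenced from 24 libraries in 8 groups of 3, grouped by their titles. The deposited files hold 1 log2 value per gene, and the powers of 2 of these values sum to between 990678 and 1008194 per library, so they were read as log2 CPM. The tools named in the submitters' processing notes were STAR 2.6.0c with the mm10 build, featureCounts from Subread 1.6.2, limma, and for the reads cutadapt 1.8.3 and FastQC 0.11.5. The scaling and the step that equalised the means of the replicate numbers are not given in the sources used here, and counts were not used, so depth per library is unknown.

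Genes at 0 log2 CPM or more in at least 3 libraries were fitted with limma 3.58.1 in R 4.3.3, with group and replicate number as terms over all 24 libraries, a trend and robust moderation, and Benjamini-Hochberg adjustment over 11885 genes. Because the deposited values already lack a replicate-number term, the fit kept the replicate number as a block, which leaves 14 residual degrees of freedom. The fit was tested on simulated data with independent noise, the same spread for a gene in every group and no equalised replicate means. That test therefore cannot tell how the equalised means or a wider spread in late GC act on the p-values. Alternatives were other filters, scalings and scales, no block, the 6 libraries alone, marker sums as covariates and the removal of each library.

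The comparison, the lists and the rules were chosen with earlier results of these data known. The rule named the genes past the thresholds with the largest changes, by expression class and direction, and up to 4 members of each list. It also named a set of genes, such as Ccr7 and Myc, whatever their values. Some genes outside the rule, such as Fosb, Klf2 and Plbd1, were named after their values were seen. Results of some genes are not reported here. File symbols were matched to RefSeq (GRCm38.p6) for 21571 genes by symbol and 1660 by synonym, and coordinates are from RefSeq. Promoter windows of 250 bases came from the same source. Tables were handled in Python 3.11.15.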

Additional observations from a re-analysis of the deposited data

How the results depend on the processing

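With the 6 late and peak GC libraries alone, where 2 residual degrees of freedom remain, 374 genes were called, 330 higher and 44 lower, and 291 by 2-fold or more, 259 higher and 32 lower. Without the replicate block 3877 genes were called, 1431 higher and 2446 lower, and of 129 named genes 127 stayed on their side of the threshold and 2 gained a call. With their direction kept, 65 of the 129 lost their call with the 6 libraries alone and 23 centred on B-cell genes. With marker covariates 28 stayed on their side of the threshold, 77 lost their call with their direction kept and 11 changed sign. The covariate fit gave no call to members of the macrophage, neutrophil and erythroid lists, so these are in none of the 3 counts. A filter of 2 log2 left 517 genes changed by 2-fold or more, 408 higher and 109 lower, and a filter over the 6 libraries left 171 lower. On the log2(CPM + 1) scale 437 changed by 2-fold or more and 17 of these were lower. Centred on B-cell genes, 1850 were called, 814 higher and 1036 lower. With marker sums as covariates 25 were called, 9 higher and 16 lower, and 20 by 2-fold or more, 8 higher and 12 lower. Late GC replicate 3 alone, chosen after seeing the data, gave 1729, 772 higher and 957 lower. Leaving out 1 library gave 2329 to 3577 calls, 1038 to 1322 higher and 1291 to 2255 lower, the lowest without peak GC replicate 1. By 2-fold or more it gave 715 to 1051, 456 to 633 higher and 242 to 418 lower. A level of 4 log2 for class 2 gave 136 genes.

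Of the 129 genes named, 11 changed sign with marker covariates: Ccr6 (0.22), Ctsb (-0.33), Gbp7 (-0.10), H2-DMb1 (0.20), Il7r (-0.41), Klf3 (-0.49), Pdcd1lg2 (0.056), Psap (-0.084), Spn (-0.018), Tlr7 (-0.79) and Tnfrsf13c (0.023). The median SE of this fit over all genes tested was 0.251 log2, and for differences smaller than that the sign is not settled. The cause of these changes of sign was not tested.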

Other observations

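RNA of the exocrine pancreas, in a list of 10 digestive enzyme genes chosen after their values were seen, summed to 15.2, 112 and 34.5 CPM in late GC replicates 1, 2 and 3, against 2.88, 2.13 and 1.63 CPM in peak GC replicates 1, 2 and 3. Pnlip, a pancreatic lipase, had 1.40, 5.07 and 2.93 log2 CPM in late GC, against -0.87, -0.58 and -2.50 in peak GC. Replicate 2 was the highest late GC library for these genes, replicate 1 for macrophage and neutrophil genes, and replicate 3 for NK cell and mast cell genes. Naive cells averaged 5.34 CPM of the pancreas genes.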
